A study of Mus musculus with 12 samples.

Results

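A set of 10 genes of the NRF2 pathway and of oxidative stress defence were followed across medullary thymic epithelial cells (mTECs): Nfe2l2, Keap1, Srxn1, Slc7a11, Nqo1, Hmox1, Gclc, Gclm, Txnrd1 and Prdx1. They were taken by name from the 50600 genes of the count tables, and all 10 were found and passed the filter on low counts. RNA sequencing of polyadenylated RNA had been done in 12 libraries of mouse cells, 6 of MHC class II high mTECs (mTEC hi) and 6 of MHC class II low mTECs (mTEC lo), sorted from thymuses of mice aged 6 to 8 weeks. The mice were Psmb11-deficient, with the strain label B6.B6CB-Psmb11tm1Smta (Psmb11-/-), or wild type (WT), with the same strain name and Psmb11+/+. No treatment is named for any group. Psmb11 encodes beta5t, a proteasome subunit of cortical thymic epithelium, and its loss in these mice is not limited to mTECs. In 8 libraries title, source name and strain named the same genotype, so each cell type had 2 libraries of each genotype. For the 4 remaining libraries the genotype in the title was the opposite of that in source name and strain, and these entered the comparison of cell types and not the main comparison of genotypes. Whether replicate libraries came from separate mice is not in the labels, and the p-values then measure only a spread between samples that may be technical.

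NRF2, the protein of Nfe2l2, is a transcription factor that is made and destroyed continuously. KEAP1 binds it and hands it to a ubiquitin ligase built on CUL3. Oxidants and electrophiles modify cysteines of KEAP1, NRF2 then accumulates, pairs with a small MAF protein and binds antioxidant response elements in the promoters of its targets. Targets include the cystine carrier Slc7a11, both subunits of the enzyme that starts glutathione synthesis (Gclc and Gclm), thioredoxin reductase (Txnrd1), peroxiredoxin (Prdx1), sulfiredoxin (Srxn1), the quinone reductase Nqo1 and haem oxygenase (Hmox1). Several of them also answer to other factors, such as ATF4 for Slc7a11 and AP-1 for Srxn1. Because NRF2 is controlled mainly as a protein, the level of its mRNA does not give its activity. mTEC hi are the mTECs that make Aire and many tissue antigens.

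In mTEC hi, 4 of the 10 genes were higher than in mTEC lo and 5 were lower (edgeR quasi-likelihood test, adjusted p under 0.05). The background was wide: 82.1% of the 23923 genes tested passed the same test, 44.2% as higher and 38% as lower. The share of members called is therefore near the background, and the description that follows rests on the size and direction of each gene. Srxn1 was 5.05-fold higher in mTEC hi, Hmox1 2.46-fold, Nqo1 2.11-fold and Prdx1 1.14-fold. Slc7a11 was 3.37-fold lower, Nfe2l2 2.58-fold, Keap1 1.64-fold, Gclm 1.59-fold and Txnrd1 1.35-fold. Gclc did not pass the test. The median log2 difference of the 10 was -0.27, beside 0.084 for all genes tested. Libraries of the cell types did not overlap for 8 of the 10 genes, and for 68.8% of all genes tested.

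The promoters of the genes at both ends of this range matched different motifs among those searched. RefSeq windows of 250 bases before the start (GRCm38.p6) were available for 8 of the members and were searched on both strands for the core of the antioxidant response element (TGACNNNGC), for the AP-1 site (TGANTCA) and for the ATF4 response motif (TGATGNAA). Of 32851 promoter windows of the same length, 10.2% held the first, 6.75% the second and 3.45% the third. Below, the windows of the gene of largest rise, the gene of largest fall, and the peroxiredoxin and glutathione members with a match are shown 5′ to 3′ on the gene's strand, with matches in capitals. They stop before the GENCODE M21 gene. The Srxn1 window is chr2:152105274-152105515 (plus strand), that of Slc7a11 chr3:50443615-50443863 (minus), that of Prdx1 chr4:116685349-116685543 (plus) and that of Gclm chr3:122245307-122245556 (plus).
Srxn1: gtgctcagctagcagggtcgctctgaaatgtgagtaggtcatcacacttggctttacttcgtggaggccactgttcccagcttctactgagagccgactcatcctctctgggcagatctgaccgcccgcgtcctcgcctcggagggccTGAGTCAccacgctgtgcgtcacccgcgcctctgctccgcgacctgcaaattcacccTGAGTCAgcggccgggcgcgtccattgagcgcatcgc
Slc7a11: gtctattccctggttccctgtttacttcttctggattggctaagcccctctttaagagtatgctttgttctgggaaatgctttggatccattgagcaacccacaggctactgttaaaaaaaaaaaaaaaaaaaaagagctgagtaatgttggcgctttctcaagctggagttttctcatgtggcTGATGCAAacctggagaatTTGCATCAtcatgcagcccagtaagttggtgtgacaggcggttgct
Prdx1: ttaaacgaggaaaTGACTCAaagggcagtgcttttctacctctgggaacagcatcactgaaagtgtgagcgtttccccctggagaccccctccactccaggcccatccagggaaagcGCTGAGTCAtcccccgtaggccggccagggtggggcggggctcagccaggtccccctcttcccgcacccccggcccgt
Gclm: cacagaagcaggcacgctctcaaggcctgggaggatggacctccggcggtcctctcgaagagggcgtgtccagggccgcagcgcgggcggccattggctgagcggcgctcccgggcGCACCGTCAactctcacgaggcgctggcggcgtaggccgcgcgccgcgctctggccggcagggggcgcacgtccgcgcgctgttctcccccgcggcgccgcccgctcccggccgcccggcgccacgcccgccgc
Srxn1 held 2 AP-1 matches, at 102 to 96 and at 45 to 39 bases before the RefSeq start, and no antioxidant core as searched. The match at 45 to 39 bases is followed by gc and so reads TGAGTCAGC. That differs from TGACNNNGC only by a G in place of the C, and looser forms of the core were not searched. Slc7a11 held 2 ATF4 response motifs facing each other, TGATGCAA at 66 to 59 bases before the start and the same letters on the other strand at 47 to 40. In Prdx1 the antioxidant core TGACTCAGC lay on the minus strand at 133 to 125 bases and contains an AP-1 match, and a further AP-1 match lay at 237 to 231. Gclm had the core TGACGGTGC on the minus strand at 134 to 126 bases. Among the windows not shown, Nfe2l2 had the core TGACTCCGC at 240 to 232 bases and 1 of the 3 Txnrd1 windows had TGACAAAGC at 92 to 84, while those of Nqo1 and Keap1 had no match. In all, 4 of the 8 members with a window held the antioxidant core in the exact form searched, a count that leaves out Srxn1. A match describes letters and is neither a site shown to be bound nor a cause, and enhancers outside the window were not searched.

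Aire and the MHC class II gene H2-Aa went with the labels of the sorted libraries, while other epithelial markers went both ways. Aire, the regulator of tissue antigens, was between 1672 and 2254 CPM (reads relative to the library total, scaled by TMM) in mTEC hi and between 11.1 and 26.0 CPM in mTEC lo. H2-Aa was between 5300 and 5729 CPM in mTEC hi and between 1925 and 2293 CPM in mTEC lo. The epithelial marker Epcam was between 593 and 639.5 CPM in mTEC hi and between 784 and 951 CPM in mTEC lo, without overlap. Of 10 medullary epithelial markers 6 were called higher in mTEC hi and 3 lower, namely Epcam, Krt5 and Krt14. Of 8 cortical epithelial markers 4 were called higher and 3 lower. Over all genes tested, 44.2% were called higher and 38% lower. Psmb11 was between 0.847 and 1.63 CPM in the 6 libraries titled as deficient and between 7.10 and 12.2 CPM in the 6 titled as WT, so its level followed the title, also in the 4 libraries whose other labels say the opposite. Total gene reads ranged from 38791960 to 86793594 per library. Reads outside genes made up 13.04% to 15.8% in mTEC hi and 7.42% to 11.1% in mTEC lo. With bulk samples, fewer cells of a type and less RNA per cell cannot be told apart.

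The sensor and the factor were both lower in mTEC hi. Nfe2l2 (ENSMUSG00000015839, chr2:75675513-75704641, minus strand of GRCm38) was at 62.5, 64.4 and 67.8 CPM as the lowest, median and highest of the 6 mTEC hi libraries, and at 158, 166 and 183 CPM in mTEC lo. All mTEC lo libraries lay above all mTEC hi libraries, with a wide gap. The log2 difference was -1.37 (SE 0.047, adjusted p = 3.15e-14, edgeR). Keap1 (ENSMUSG00000003308, chr9:21229730-21239361, minus strand), whose protein retains NRF2, was at 46.6, 49.1 and 52.7 CPM in mTEC hi and at 75.1, 80.5 and 87.2 CPM in mTEC lo, again without overlap. Its log2 difference of -0.72 (SE 0.047, adjusted p = 1.88e-10, edgeR) was the smaller of the pair. Accordingly the ratio of Keap1 to Nfe2l2 transcripts in TPM, a level per length, within a library was between 0.70 and 0.83 in mTEC hi and between 0.45 and 0.55 in mTEC lo. Keap1 exons overlap an antisense gene, Gm16754, and the counting ignored the strand. Reads that fit both genes were set aside as ambiguous, a class of 3.57% to 4.16% of reads per library, and are missing from the Keap1 count. The RSEM expected counts of Keap1 were 0.609 to 0.661 of its reads, where all other members lay between 0.412 and 0.534. The difference of Keap1 by RSEM was -0.67 on the log2 scale.

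Slc7a11 was the member that fell most in mTEC hi. It encodes xCT, the subunit of the cystine and glutamate exchanger that carries the substrate, and it brings in the cystine from which glutathione is made. Slc7a11 (ENSMUSG00000027737, chr3:49892526-50443614, minus strand) was at 86.2, 94.3 and 104 CPM in mTEC hi and at 288, 324 and 341 CPM in mTEC lo, lowest, median and highest. Every mTEC lo library held more than the highest mTEC hi library. The log2 difference was -1.75 (SE 0.057, adjusted p = 1.41e-14, edgeR). Slc3a2, the heavy chain that takes xCT to the membrane and that also serves other amino acid carriers, fell less, from a mean of 263 to 168 CPM (log2 difference -0.65, adjusted p = 9.84e-10, edgeR). The TPM ratio of Slc7a11 to Slc3a2 was between 0.107 and 0.124 in mTEC hi and between 0.222 and 0.263 in mTEC lo.

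The subunits of glutamate-cysteine ligase, the enzyme that joins cysteine to glutamate, did not move alike. Gclm (ENSMUSG00000028124, chr3:122245557-122270732, plus strand), the modifier subunit, was at 25.4, 27.0 and 27.7 CPM in mTEC hi and at 37.8, 42.1 and 46.5 CPM in mTEC lo, with no overlap, a log2 difference of -0.67 (SE 0.048) and an adjusted p of 7.7e-10 in edgeR. Its exons overlap Gm17494 on the other strand and the pseudogene Gm6061 on its own strand. Reads that Gclm shares with either were set aside as ambiguous and are missing from its count. Gclc (ENSMUSG00000032350, chr9:77754535-77794485, plus strand), the catalytic subunit, was at 94.5, 96.0 and 104 CPM in mTEC hi and at 92.5, 103 and 133 CPM in mTEC lo. Its libraries overlapped, and the log2 difference of -0.10 (95% interval -0.25 to 0.045) did not pass the edgeR test (adjusted p = 0.183). With scaling by library size alone the sign of Gclc turned, to 0.18 with an adjusted p of 0.0202. Gss, which completes glutathione synthesis, rose from a mean of 18.8 to 24.2 CPM (log2 difference 0.36, adjusted p = 2.77e-05, edgeR).

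Thioredoxin reductase and its relatives split as well. Txnrd1 (ENSMUSG00000020250, chr10:82833951-82897712, plus strand) encodes the cytosolic enzyme that reduces thioredoxin with NADPH, and it was at 89.5, 93.2 and 96.0 CPM in mTEC hi and at 112, 128 and 133 CPM in mTEC lo. The groups did not overlap, the log2 difference was -0.43 (SE 0.047, adjusted p = 1.86e-07, edgeR), and it shrank to -0.15 with library size alone. Prdx1 (ENSMUSG00000028691, chr4:116685544-116700822, plus strand) encodes an abundant peroxidase that thioredoxin recharges. It was at 251, 267 and 305 CPM in mTEC hi and at 202, 238 and 291 CPM in mTEC lo, so the ranges overlapped. Its log2 difference was 0.19 (SE 0.056, adjusted p = 0.00484, edgeR) in favour of mTEC hi. Neither Txnrd1 nor Prdx1 passed a test for a change of at least 1.5-fold (adjusted p = 1 for each, edgeR), a test that 54.2% of all genes passed.

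Srxn1 rose most of the 10. Sulfiredoxin, its protein, repairs peroxiredoxins whose cysteine has been over-oxidised by peroxide. Srxn1 (ENSMUSG00000032802, chr2:152105516-152111376, plus strand) was at 172, 178 and 193 CPM in mTEC hi and at 33.1, 34.8 and 41.5 CPM in mTEC lo. The lowest mTEC hi library lay far above the highest mTEC lo library. The log2 difference of 2.34 (SE 0.052, adjusted p = 1.2e-16, edgeR) kept its sign and its call in each of the 24 other settings tried. Set against its substrate, Srxn1 stood at 0.192 to 0.253 of the Prdx1 level in TPM in mTEC hi and at 0.051 to 0.066 in mTEC lo.

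Nqo1 and Hmox1, which act on quinones and on haem, were both higher in mTEC hi. Nqo1 (ENSMUSG00000003849, chr8:107388225-107403206, minus strand) reduces quinones in a step that avoids radicals and is a common readout of NRF2 activity. Its level was 37.0, 38.04 and 42.2 CPM in mTEC hi and 15.9, 17.5 and 22.5 CPM in mTEC lo, without overlap, for a log2 difference of 1.08 (SE 0.058, adjusted p = 1.3e-11, edgeR). Hmox1 (ENSMUSG00000005413, chr8:75093621-75100589, plus strand) opens the haem ring and releases iron, and is strongly made in macrophages that clear red cells. It was at 72.7, 78.9 and 87.2 CPM in mTEC hi and at 27.4, 32.9 and 35.4 CPM in mTEC lo. No mTEC lo library reached the lowest mTEC hi library, and the log2 difference was 1.298 (SE 0.066, adjusted p = 5.66e-12, edgeR). Hmox2, the constitutive enzyme, was at a mean of 29.3 CPM in mTEC hi, beside 29.0 CPM in mTEC lo (adjusted p = 0.791, edgeR), so that the TPM ratio of Hmox1 to Hmox2 was between 1.39 and 1.66 in mTEC hi and between 0.51 and 0.70 in mTEC lo.

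**Figure D1:**
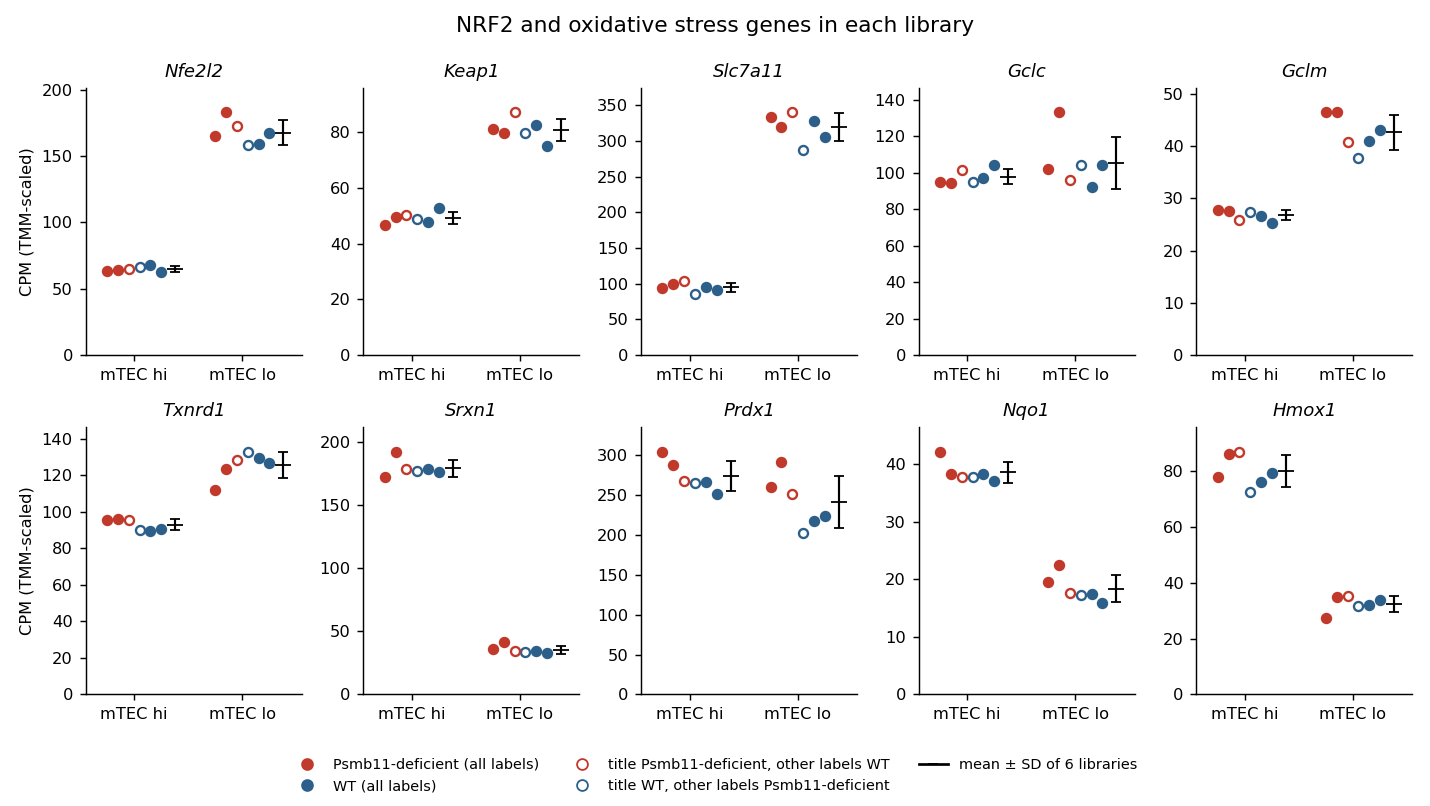
Level of each of the 10 genes (vertical axis, CPM scaled by TMM, from 0) in the 6 mTEC hi and 6 mTEC lo libraries (horizontal axis). Filled points are libraries whose labels all name the same genotype, open points those with conflicting labels (colour from the title), and bars are the mean and SD of 6 libraries. The groups stand apart for 8 genes, and overlap for Gclc and Prdx1.

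Blood cell and stress markers moved with the same contrast. The counts below stand beside 44.2% of all genes tested called higher in mTEC hi and 38% called lower. The difference of these lists from other genes was not tested. Of 14 macrophage and dendritic cell markers 13 were called higher in mTEC hi and none lower. Their summed level was between 566 and 599.5 CPM in mTEC hi and between 48.4 and 83.8 CPM in mTEC lo, and Marco was at 0 in 2 of the mTEC lo libraries and at 14.1 to 19.7 CPM in mTEC hi. All 6 erythroid markers were higher (sums of 18.6 to 22.3 CPM against 1.29 to 4.96 CPM), as were all 6 B cell markers (69.1 to 73.6 CPM against 11.47 to 17.7 CPM). Most of the erythroid sum in mTEC hi was Alas2, at a mean of 14.0 CPM. Of 10 thymocyte markers 6 were called higher and none lower, with sums of 169 to 301 CPM against 49.2 to 117 CPM. Of 7 fibroblast markers 3 were higher and 4 lower, and of 5 endothelial markers 3 were lower. Mitochondrial genes took 1.69% to 1.92% of gene reads in mTEC hi and 2.11% to 3.22% in mTEC lo, without overlap. All 10 immediate early genes, which include the AP-1 genes Fos and Jun, were lower in mTEC hi, with sums of 4449 to 6133 CPM against 20970 to 26320 CPM. Of 10 ATF4 target genes, 2 of which (Sesn2 and Chac1) are also on the antioxidant lists described further on, 6 were higher and 4 lower. Whether the marker RNA came from other cells or from mTEC hi, which make many tissue antigens, was not tested. The part of either source, of the mitochondrial share and of these responses in the levels of Hmox1, Srxn1, Slc7a11 and the other members was not tested.

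Read per length, the order of the 10 genes changed between the cell types. Prdx1 had the highest level in both, at 490.1 ± 39.2 TPM (mean ± SD, n = 6) in mTEC hi and 334 ± 36.6 TPM in mTEC lo. In mTEC hi Srxn1 came next at 112 ± 4.3 TPM and Hmox1 after it at 90.6 ± 6.02 TPM. The following genes were Txnrd1 at 50.5 ± 1.35, Nfe2l2 at 46.9 ± 3.03, Gclc at 43.8 ± 2.34, Nqo1 at 41.9 ± 2.11 and Gclm at 41.6 ± 2.30 TPM, neighbours within about their spread. Keap1 at 35.2 ± 2.19 TPM and Slc7a11 at 18.9 ± 1.06 TPM were the lowest. In mTEC lo Nfe2l2 was next after Prdx1, at 96 ± 2.34 TPM, ahead of Txnrd1 at 54.0 ± 4.96 TPM. Slc7a11 at 48.3 ± 2.76, Gclm at 47.7 ± 3.03 and Keap1 at 47.4 ± 3.18 TPM came after Txnrd1. The means of Slc7a11, Gclm and Keap1 do not differ beyond their spread. Gclc at 37.9 ± 4.71, Hmox1 at 28.6 ± 1.83, Srxn1 at 18.3 ± 1.04 and Nqo1 at 16.0 ± 1.87 TPM closed the order. Srxn1 thus held rank 2 in mTEC hi and rank 9 in mTEC lo, and Slc7a11 rank 10 and rank 4. TPM carries no TMM scaling, and for Gclc its means ran in the opposite direction to the CPM means.

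**Figure D2:**
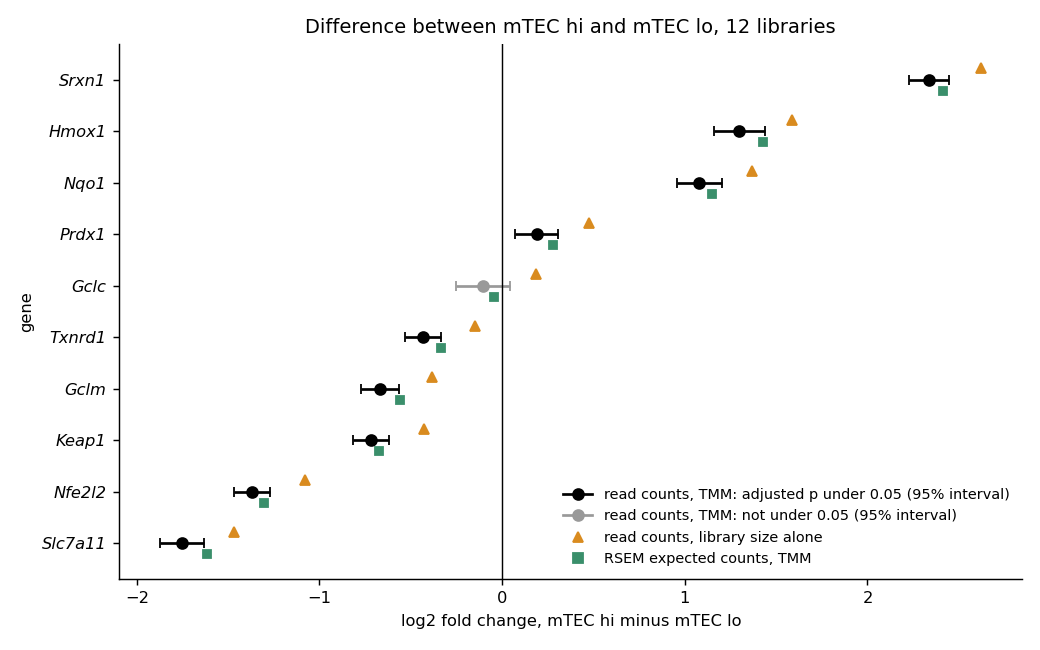
Log2 fold change of mTEC hi minus mTEC lo (horizontal axis) for each gene (vertical axis), with 95% intervals for read counts scaled by TMM, beside the same read counts with library size alone and the RSEM expected counts. The order from Srxn1 at 2.34 to Slc7a11 at -1.75 is the same in the main fit and both alternatives, and only Gclc lies on different sides of 0.

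Scaling moved all values together. With library size alone the median log2 difference over all genes rose from 0.084 to 0.37, and the share of called genes that were higher in mTEC hi rose from 53.8% to 67.0%. Relative to that shift the order of the 10 genes stayed as it was. The differences then ran from 2.62 for Srxn1 to -1.47 for Slc7a11, all 10 passed the edgeR test, and Gclc alone changed side.

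**Figure D3:**
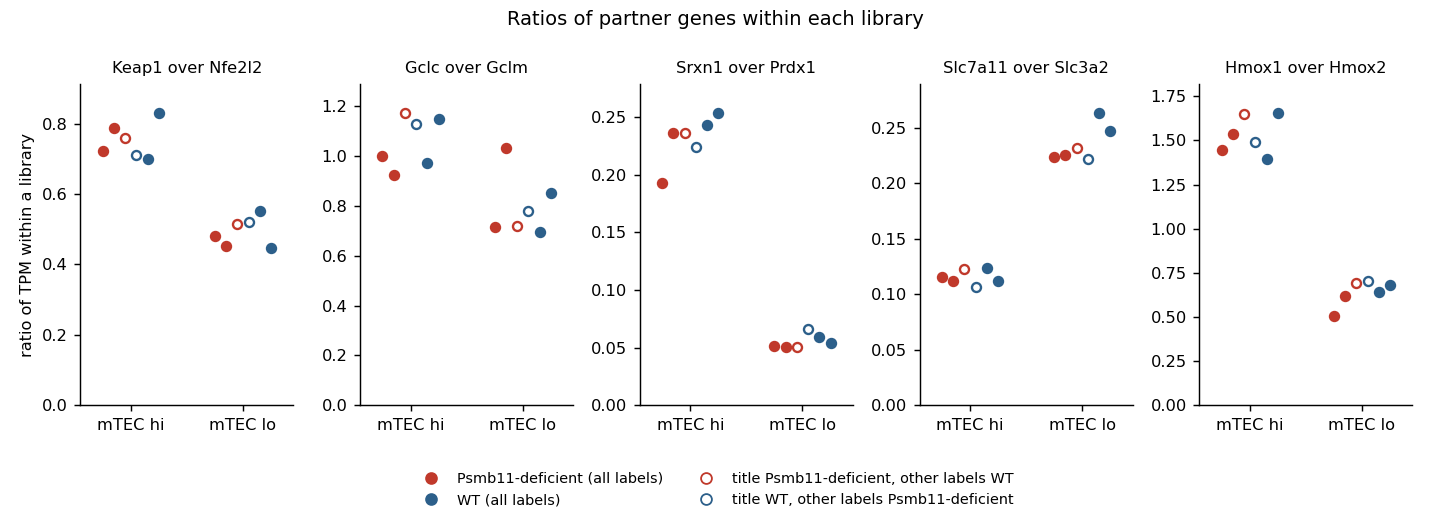
Ratio of the TPM of partner genes within each library (vertical axes, from 0) in mTEC hi and mTEC lo, with points coloured and filled by the labels. Keap1 over Nfe2l2, Srxn1 over Prdx1 and Hmox1 over Hmox2 are higher in every mTEC hi library, Slc7a11 over Slc3a2 is lower in every mTEC hi library, and Gclc over Gclm overlaps.

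These ratios need no scaling between libraries. The Gclc to Gclm ratio had a median of 1.06 in mTEC hi and 0.75 in mTEC lo, but 1 mTEC lo library, Psmb11-deficient replicate 2, reached 1.03 and lay inside the mTEC hi range of 0.92 to 1.17.

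The wider antioxidant network went in both directions too. Of 114 other genes in 8 lists of the pathway, 43 were called higher in mTEC hi, 58 lower and 13 were not called, with a median log2 difference of -0.16 beside 0.084 for all genes tested. Since 44.2% of all genes were called higher and 38% lower, counts of this kind are frequent in any list, and the difference of these lists from other genes was not tested. Among 20 regulators and partners of NRF2, 4 rose and 14 fell. Cul3, the scaffold of the ligase that KEAP1 works with, fell slightly, from 221 ± 18.6 to 194 ± 12.9 CPM (mean ± SD, n = 6, log2 difference -0.19, adjusted p = 0.00704, edgeR), although its ranges overlapped. The stress-induced sestrin Sesn2 rose most in that list (log2 difference 1.84, from 37.7 to 135 CPM). Its relative Sesn1 (-0.996, from 51.1 to 25.6 CPM) and Nfe2l3, a relative of Nfe2l2 (-0.996, from 243 to 122 CPM), were level with each other at the lower end.

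Of 23 glutathione transferases, which attach glutathione to electrophiles, 15 rose and 5 fell, and the median was 0.62. Gstm3 had the largest difference of any gene in these lists, at 29.0 to 37.1 CPM in mTEC hi and 0.054 to 0.37 CPM in mTEC lo (log2 difference 7.48, adjusted p = 3.24e-16, edgeR), and Gsto1 fell most (-2.14). Members of this family resemble each other closely, and the counting set aside reads that mapped to several places, so single values are uncertain. Such reads made up 6.14% to 8.50% per library. Among 19 genes of glutathione synthesis and use 6 rose and 11 fell. Ggt1, which breaks down glutathione outside the cell, rose most (log2 difference 3.08, from 1.299 to 10.98 CPM), and Gpx8, a peroxidase of the endoplasmic reticulum, fell most (-3.99, from 27.98 to 1.74 CPM).

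Of 14 genes of the thioredoxin and peroxiredoxin list 3 rose and 10 fell. Prdx3, the mitochondrial relative of Prdx1, rose most (log2 difference 1.41, from 47.1 to 125 CPM), and the methionine sulfoxide reductase Msrb3 fell most (-2.59, from 119 to 19.8 CPM). Genes that remove superoxide and peroxide were few: Cat, catalase, rose from 55.5 ± 1.88 to 90.4 ± 6.203 CPM (log2 difference 0.70, adjusted p = 5.4e-11, edgeR). Sod1, the cytosolic superoxide dismutase, fell (-0.57, adjusted p = 2.02e-08, edgeR), whereas mitochondrial Sod2 (0.34, adjusted p = 8.1e-07) and extracellular Sod3 (1.52, adjusted p = 2.44e-07) rose.

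NADPH feeds both NQO1 and thioredoxin reductase. In that list 4 of 9 genes rose and 4 fell. Tkt, the transketolase of the pentose phosphate pathway, rose most (log2 difference 2.60, from 106 to 639 CPM) and Idh1, a cytosolic isocitrate dehydrogenase that makes NADPH, fell most (-0.75). Of 9 haem and iron genes 2 rose and 4 fell, with the transferrin receptor Tfrc at 1.84 and Fech, which completes haem, at -1.36. Of 15 genes of quinone and aldehyde detoxification 6 rose and 9 fell. Adh7, an alcohol dehydrogenase of epithelia, was at the top (4.003, from 0.524 to 8.46 CPM) and Aldh2, the mitochondrial aldehyde dehydrogenase, at the bottom (-2.50, from 339 to 60.0 CPM). Every gene named as the top or bottom of a list passed the edgeR test.

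**Figure D4:**
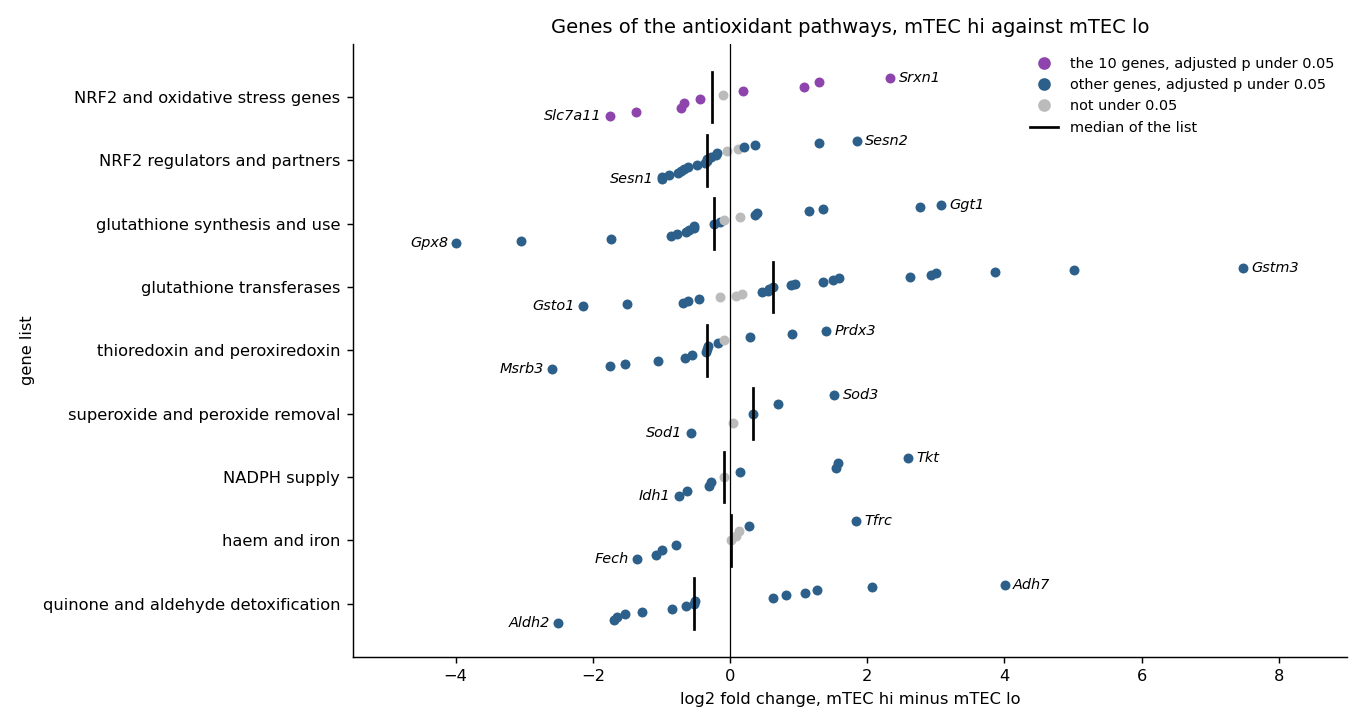
Log2 fold change of mTEC hi minus mTEC lo (horizontal axis) for the 10 genes and the 8 other lists (vertical axis), 1 point per gene, with the list's median as a line and the lowest and highest gene named. Each list has called genes on both sides of 0, and the transferases reach farthest up, to 7.48 for Gstm3.

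The genes whose levels most resembled a member's over the 12 libraries followed the cell type. For Srxn1, among 10975 genes of at least 10 CPM, S100g had a Pearson r of 0.9997 and Prnp of 0.9996, and for Slc7a11 L3mbtl3 and Ccn1 had 0.998 each. These values mainly restate the separation of mTEC hi from mTEC lo, which the points share. After each cell type's mean was taken off, Creg1 (0.959) and Clic4 (0.954) were nearest to Srxn1, and Unc5c (0.892) and Ids (0.884) to Slc7a11.

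Between genotypes none of the 10 genes passed the test. In mTEC hi 0 of 10 were called with edgeR, where 0.00375% of the 26642 genes tested were called, a single gene that is Psmb11 itself (log2 difference -3.07, adjusted p = 0.00457). In mTEC lo 0 of 10 were called, where 0.015% were, with Psmb11 again lower (-2.81, adjusted p = 0.00814, edgeR). DESeq2 called 0 of the 10 in each cell type as well. At an unadjusted p under 0.05 there was 1 member in mTEC hi and 2 in mTEC lo, against 3.45% and 11.3% of all genes. In mTEC hi 7 of the 10 were above WT (51.3% of all genes were), with a median log2 difference of 0.073, and in mTEC lo 8 were (47.6% of all genes), with a median of 0.11. In each cell type 5 members had groups that did not overlap, where 36.2% of all genes had. With 2 libraries a group such separation is frequent.

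Prdx1 came nearest to a call in both cell types. In mTEC hi the deficient pair was at 305 and 288 CPM and the WT pair at 267 and 251 CPM. The deficient libraries were both higher, with a log2 difference of 0.20 (95% interval 0.0058 to 0.40), an unadjusted edgeR p of 0.0445 and an adjusted p of 1. In mTEC lo it was at 260 and 291 CPM against 218 and 224 CPM, again without overlap, with a log2 difference of 0.31 (95% interval 0.11 to 0.51, adjusted p = 0.262, edgeR). By title, which also gives the 4 disputed libraries a genotype, the 3 deficient libraries were between 268 and 305 CPM in mTEC hi and the 3 WT libraries between 251 and 267 CPM. In mTEC lo they were between 251.5 and 291 CPM against 202 to 224 CPM, so neither cell type had an overlap by title. With genotype from the title the log2 difference in mTEC lo was 0.32 (adjusted p = 0.132, edgeR). With genotype from the source name, which the Psmb11 levels of the disputed libraries go against, that difference was 0.13 (adjusted p = 0.909, edgeR).

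Nqo1 was the other member with a low unadjusted p in mTEC lo. The deficient pair was at 19.6 and 22.5 CPM and the WT pair at 17.4 and 15.9 CPM. The groups did not overlap, and the log2 difference of 0.33 (95% interval 0.094 to 0.57) had an adjusted p of 0.303 in edgeR. In mTEC hi Nqo1 was at 42.2 and 38.4 CPM against 38.2 and 37.0 CPM, a difference of 0.11 (95% interval -0.13 to 0.34, adjusted p = 1, edgeR).

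Txnrd1 and Gclc had opposite signs in the cell types. Txnrd1 was at 95.7 and 96.0 CPM in Psmb11-deficient mTEC hi and at 89.5 and 90.8 CPM in WT mTEC hi, a log2 difference of 0.095 (95% interval -0.085 to 0.27). In mTEC lo it was at 112 and 123 CPM against 130 and 127 CPM, a difference of -0.13 (95% interval -0.31 to 0.049). Each pair of groups stood apart, in opposite directions, and neither passed the edgeR test (adjusted p = 1 and 0.576). Gclc was at 94.8 and 94.5 CPM against 97.2 and 104 CPM in mTEC hi, a difference of -0.082 (95% interval -0.34 to 0.17). In mTEC lo it was at 102 and 133 CPM against 92.5 and 104 CPM, with overlap and a difference of 0.25 (95% interval -0.0039 to 0.51, adjusted p = 0.449, edgeR). Without the library at 133 CPM the Gclc difference in mTEC lo was 0.046.

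For the remaining members in mTEC hi the log2 differences were 0.092 for Gclm, 0.083 for Hmox1, 0.063 for Slc7a11, 0.048 for Srxn1, -0.0225 for Nfe2l2 and -0.0572 for Keap1. In mTEC lo they were 0.18 for Srxn1, 0.14 for Gclm, 0.086 for Nfe2l2, 0.038 for Slc7a11, 0.0229 for Keap1 and -0.088 for Hmox1. The widest of these 95% intervals was that of Hmox1 in mTEC lo, from -0.33 to 0.16, and all of them contain 0. The groups of Gclm did not overlap in either cell type, and those of Srxn1 did not in mTEC lo (35.9 and 41.5 CPM against 34.7 and 33.1 CPM). The Srxn1 value in mTEC lo rested largely on the library at 41.5 CPM, Psmb11-deficient replicate 2: it was 0.073 without that library and 0.29 without the other deficient one. These intervals are not adjusted for the number of genes tested and are not limits of detection. Differences within them remain possible with the 2 libraries a group of the main fit.

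Of the 114 other genes of the pathway none was called between genotypes in either cell type. Thymocyte markers leaned upward in the deficient libraries, with none called. All 10 were above WT in each cell type, where 51.3% of all genes were in mTEC hi and 47.6% in mTEC lo. Their sums were 184 and 301 CPM against 169 and 173 CPM in mTEC hi, a difference that rests largely on the library at 301 CPM. In mTEC lo they were 81.2 and 117 CPM against 49.2 and 56.1 CPM. Of 6 erythroid markers 4 were above WT in deficient mTEC lo, with log2 differences of the list from -0.45 to 7.70. Only 1, Hba-a1 (an alpha globin, named after its value was seen), was called, as higher. It was near the floor, at 0 to 0.67 CPM over the mTEC lo libraries. The list sums were 2.84 to 4.96 CPM against 1.29 to 2.11 CPM. The part of both lists in the differences of Prdx1, Nqo1 and the other members was not tested.

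**Figure D5:**
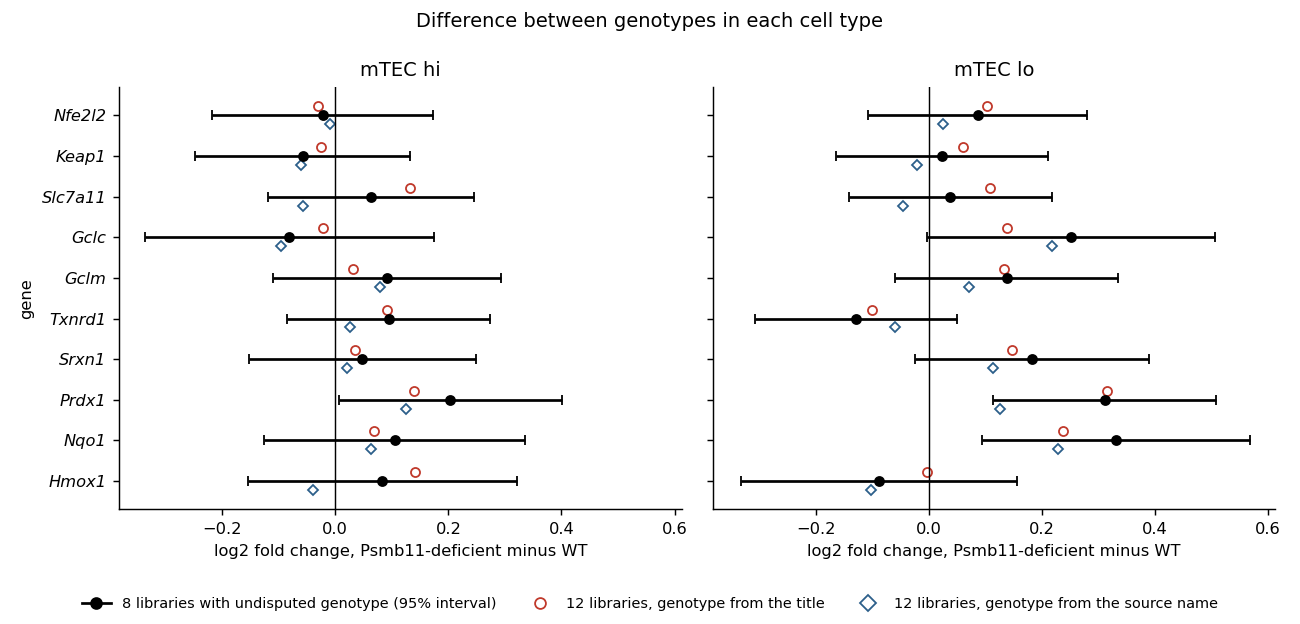
Log2 fold change of Psmb11-deficient minus WT (horizontal axes) for each gene (vertical axis) in mTEC hi and mTEC lo, with 95% intervals from the 8 libraries with undisputed genotype and the values from all 12 libraries with the genotype of either the title or the source name. The intervals leave out 0 for Prdx1 in both cell types and for Nqo1 in mTEC lo, none with an adjusted p under 0.05.

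The genotype difference was also compared between the cell types, as an interaction in the same model. None of the 10 genes was called, 0% of all genes were, and no member had an unadjusted p under 0.05, where 4.41% of all genes had (edgeR). The values farthest from 0 were those of Gclc at -0.33 (SE 0.17), Nqo1 at -0.23 (SE 0.15) and Txnrd1 at 0.22 (SE 0.12), each with an adjusted p of 0.9998. These values depended on the deficient mTEC lo libraries. Without replicate 2 of that group Gclc was at -0.125, Nqo1 at -0.12 and Txnrd1 at 0.299, and without replicate 1 they were at -0.53, -0.34 and 0.14. DESeq2 called 0 members too.

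Within each genotype the contrast of mTEC hi with mTEC lo ran as over all 12 libraries. In the Psmb11-deficient libraries 3 members were higher in mTEC hi, 6 were lower and Prdx1 was not called, with 68.1% of all genes called, 39.4% as higher and 28.7% as lower. In WT libraries 3 were higher, 5 lower, and Prdx1 and Gclc were not called, with 67% of all genes called, 38.4% as higher and 28.6% as lower. Srxn1 had a log2 difference of 2.22 (SE 0.098) in deficient and 2.36 (SE 0.099) in WT libraries, and Slc7a11 -1.78 (SE 0.086) and -1.80 (SE 0.086). Gclc was -0.33 (adjusted p = 0.024, edgeR) in deficient and 0.0025 (adjusted p = 0.987) in WT libraries, values whose difference is the interaction given above. The call of Gclc in the deficient libraries was lost without mTEC lo replicate 2 (-0.12, adjusted p = 0.336, edgeR), and also without either mTEC hi library (-0.33 and -0.32, adjusted p = 0.0915 and 0.0934), which leaves 5 members lower in place of 6. Without mTEC lo replicate 1 it was -0.51 (adjusted p = 0.000412, edgeR). No other member changed its call within a genotype when 1 of the 4 libraries was left out, a step added after the data were seen.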

How the data were processed

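For each library the authors deposited raw read counts per gene, unstranded and per strand, together with RSEM expected counts and TPM. Per the submitters' processing notes CASAVA 1.8.2, STAR 2.5.1b and RSEM 1.2.28 were used, with the build name GRCh38, although the identifiers are those of mouse genes, and with an annotation not given in the sources used here. Symbols and coordinates come from GENCODE M21 (GRCm38). RSEM totals were 0.507 to 0.535 of the read totals.

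Unstranded counts were analysed in R 4.3.3 with edgeR 4.0.16 (filterByExpr with a count minimum of 10, TMM, quasi-likelihood F test, Benjamini-Hochberg over all genes tested, threshold 0.05). The cell type fit held all 12 libraries and a covariate for genotype class (deficient, WT or disputed). The genotype fit held the 8 undisputed libraries as 4 groups (4 residual degrees of freedom). The biological coefficient of variation was 0.115 in the first and 0.125 in the other. A standard error is the log2 fold change divided by the square root of F. DESeq2 1.42.0 was an alternative, with expected counts rounded to whole numbers in another. Fits on each strand column alone, and the contrast of cell types within a genotype with each library left out, were added after the data were seen.

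All 10 genes are named. From each other list the called genes of largest rise and fall with a mean of at least 2 CPM are named, with Cat, the Sod genes, Gss and Cul3, and the 2 genes of highest r for the members of largest rise and fall. Slc3a2 and Hmox2 were named as partners, and H2-Aa, Krt5 and Krt14 as markers, after their values were seen. The members and lists were chosen with earlier results of these data known.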

Additional observations from a re-analysis of the deposited data

Results flagged for a closer look

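In 20 groups of 6 libraries, 1 group per gene and cell type, 4 held a library that stood apart from the next by more than Dixon's 95% limit, where chance gives about 1 in 20. In mTEC lo the Psmb11-deficient replicate 2 library was the highest for Srxn1, at 41.45 CPM with the next at 35.85 CPM, and for Gclc, at 133.4 CPM with the next at 104.4 CPM. This library also had the lowest share of reads outside genes (7.42%) and the highest mitochondrial share (3.22%) of the 12. In mTEC hi Srxn1 was highest in Psmb11-deficient replicate 2, at 192.6 CPM with the next at 179 CPM, and Nqo1 in Psmb11-deficient replicate 1, at 42.21 CPM with the next at 38.36 CPM. In each case the library's labels all name the Psmb11-deficient genotype.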

How the results depend on the processing

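Counts of members called were within 1.5 times the main count under every alternative run. For mTEC hi against mTEC lo the calls of the members held in all 24 alternatives, except that Txnrd1 and Prdx1 lost theirs under a minimum change of 1.5-fold (12958 genes called) and Gclc was 0.18 with library size alone. Between genotypes counts over all genes were small and unstable, and the cause was not tested. In mTEC hi 1 gene was called in the main fit, 3 with DESeq2, 42 without a filter, 3 with RSEM counts, 0 with genotype from the source name, 2 with each cell type fitted alone, and 0 to 2 with a library left out. In mTEC lo 4 were called in the main fit, 9 with library size alone, 146 with DESeq2, 660 without a filter, 2 with genotype from the source name, 1 with mTEC lo alone, and 1 to 323 with a library left out (323 without Psmb11-deficient replicate 2 and 263 without replicate 1). For the interaction 0 were called in the main fit, 9 with DESeq2, 141 without a filter, 2 with RSEM counts, and 0 to 49 with a library left out.

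Whether title numbers pair the libraries was not settled by a check of their deviations, whose correlations were all low. The deviations of the 6 mTEC hi and mTEC lo pairs correlated between 0.00657 and 0.0936, and own partners were highest in 3 of 6. With the title number as a replicate block 45 genes were called in mTEC lo and 7 for the interaction, and no member's call changed.

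Within WT libraries the Gclc difference between mTEC hi and mTEC lo ran from -0.10 to 0.115 with a library left out, never called.

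Genotype values of members that changed sign were all uncalled. With genotype from the source name, which the Psmb11 levels of the disputed libraries go against, these were Slc7a11 at -0.057 and Hmox1 at -0.040 in mTEC hi. In mTEC lo they were Keap1 at -0.020 and Slc7a11 at -0.045, and for the interaction Slc7a11 at -0.012 and Gclm at 0.0092. With the replicate block they were Nfe2l2 at 0.018 and Gclc at 0.094 in mTEC hi and Hmox1 at 0.068 in mTEC lo. With a library left out, Nfe2l2 ran from -0.079 to 0.039, Keap1 from -0.13 to 0.014 and Srxn1 from -0.031 to 0.13 in mTEC hi, Keap1 from -0.022 to 0.071 and Hmox1 from -0.27 to 0.084 in mTEC lo, and the interaction of Slc7a11 from -0.010 to 0.061, Hmox1 from -0.0075 to 0.36 and Gclm from -0.10 to 0.011. With 2 libraries a group, small genotype differences were below what these data can show.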

Other observations

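Within cell types, with each cell type's mean taken off, some members varied together over the 12 libraries (Pearson r of log2 CPM, given as a description, since libraries share depth and composition). The highest values were 0.835 for Nqo1 and Prdx1, 0.825 for Gclm and Prdx1, and 0.765 for Srxn1 and Nqo1, and the last was 0.958 in mTEC lo and -0.339 in mTEC hi. Genotype was not taken off, so its differences stay in these values. Psmb11-deficient replicate 2 was the highest mTEC lo library for Srxn1 (41.45 CPM), Nqo1 (22.5 CPM) and Prdx1 (291 CPM). Txnrd1 and Hmox1 had 0.692 (0.775 in mTEC hi and 0.664 in mTEC lo), whereas Txnrd1 and Gclm had -0.612, with -0.836 in mTEC lo and 0.271 in mTEC hi.

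Glutathione transferases, chosen here after their values were seen, were above WT in mTEC lo for 21 of 23 genes, where 47.6% of all genes were. Their median log2 difference was 0.19, and none was called (edgeR). In mTEC hi 19 of the 23 were above WT, where 51.3% of all genes were. Other lists leaned the same way in mTEC lo: 15 of 19 for glutathione, 11 of 14 for thioredoxin and peroxiredoxin and 8 of 9 for haem and iron. The counts were 11 of 15 for quinones and aldehydes, 7 of 9 for NADPH and 4 of 5 for superoxide and peroxide. Regulators and partners of NRF2 had 9 of 20. Gstm1 was at 33.1 and 88.3 CPM in deficient mTEC lo and at 24.3 and 25.2 CPM in WT mTEC lo, so that its difference rests on 1 library, while in mTEC hi it was at 109 and 113 CPM against 91.5 and 106 CPM. Gstm2 was at 30.6 and 38.1 CPM against 22.6 and 21.96 CPM in mTEC lo (log2 difference 0.62, adjusted p = 0.117, edgeR).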
